A study of Mus musculus with 4 samples.

Results

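The genes of vascular endothelial growth factor (VEGF) signalling were examined in sorted mouse kidney nephron progenitors. They comprise the ligand genes Vegfa, Vegfb, Vegfc and Pgf and the receptor genes Flt1, Kdr and Flt4. The genes were selected by symbol and all 7 were found among the 24339 genes of the deposited table. They were proposed with their values in each library in view, so their levels are given as a description. How many of them passed the test run over all genes is given beside the share of all genes that did. Their calls under other settings are listed to show where they shift. Nothing is read from any of these calls. The cells came from a pair of mouse lines in which Six2, a transcription factor gene of nephron progenitors, directs a fusion of GFP and Cre. In Six2TGC, labelled Six2TGC transgenic, a transgene in a bacterial artificial chromosome (BAC) carries the fusion. In Six2Cre it is a knock-in joined to Six2 through a T2A peptide, and the genotype is Six2 Cre/+. Both lines therefore carry GFP-Cre, neither is a group without it, and the sample labels give no age, sex or treatment beyond sorting. The name of the deposited table, which holds all 4 libraries, gives the stage E18, embryonic day 18. Kidney cells positive for GFP were sorted, and polyadenylated RNA was sequenced in 4 libraries, 2 per line. Since the sort selects on GFP, any other cell holding the protein would also be collected.

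VEGF ligands are secreted dimers that bind receptor tyrosine kinases found mainly on endothelial cells. VEGF-A acts through KDR and FLT1, VEGF-B and placental growth factor bind FLT1, and VEGF-C acts through FLT4, chiefly in lymphatic endothelium. In the kidney, podocytes are known as a strong source of VEGF-A, which guides the growth of glomerular capillaries, while KDR and FLT1 are usually taken as endothelial genes. Neuropilins, encoded by Nrp1 and Nrp2, are co-receptors without a kinase of their own.

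The values are FPKM, which scale fragments by transcript length and library size and so allow levels to be compared between genes. Relative depth, estimated from the spacing of low values, was 0.958 in Six2TGC replicate 2, 1.85 in Six2Cre replicate 1 and 1.87 in Six2Cre replicate 2, with Six2TGC replicate 1 set at 1. Low genes were thus measured less precisely in Six2TGC. Six2 had FPKM values of 749 and 816 in Six2TGC, against 545 and 533 in Six2Cre. Six2TGC replicate 1 alone held RNA of the Y-linked gene Ddx3y (FPKM 12.7), which the other 3 libraries list at 0. Its Xist value was 0.0107, against 56.7 to 75.7 elsewhere, so the Six2TGC libraries differ in the sex of their source. Whether replicates were separate animals or pools is not stated in the labels, so the p-values cover the spread between these samples alone. In Six2TGC that spread includes the difference in sex, and in Six2Cre it may be technical. All effects are Six2TGC over Six2Cre. A mean FPKM of 1 or more was required for the test. Of the 11917 genes that met it, 24.3% differed between the lines, 10.8% higher and 13.5% lower in Six2TGC (limma on log2(FPKM + 1), Benjamini-Hochberg adjusted p under 0.05).

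Averaged over the 4 libraries, Vegfa was the most abundant of these transcripts at FPKM 104, followed by Vegfb at 53.3, Pgf at 17.4, Vegfc at 11.2, Flt4 at 3.31, Kdr at 0.285 and Flt1 at 0.104. The ligand transcripts were therefore well above the receptor transcripts, and Vegfa lay above 97.0% of all listed genes. The order differed between the lines. In Six2TGC, Vegfc ranked above Pgf and Flt4, whereas in Six2Cre it ranked below both, with no overlap between the libraries of these genes within a line. Kdr and Flt1 overlapped in Six2TGC and did not overlap in Six2Cre. Of the 5 genes tested, 2 passed, Vegfc (higher) and Pgf (lower), where 24.3% of all genes tested did. Pgf did not pass without either Six2Cre library, and Vegfa passed as well without Six2TGC replicate 2. The authors' deposited table marked only Vegfc of these 5 as significant, where 13.5% of the genes tested there were marked. The lines did not overlap in 6 of the 7 genes, where 58.6% of all genes above 0 in any library did not. Six2TGC was higher in 2 of the 7, where 26.5% of all such genes were, and lower in 4 of the 7, where 32.1% were. These counts rest on the same values that chose the genes.

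**Figure D1:**
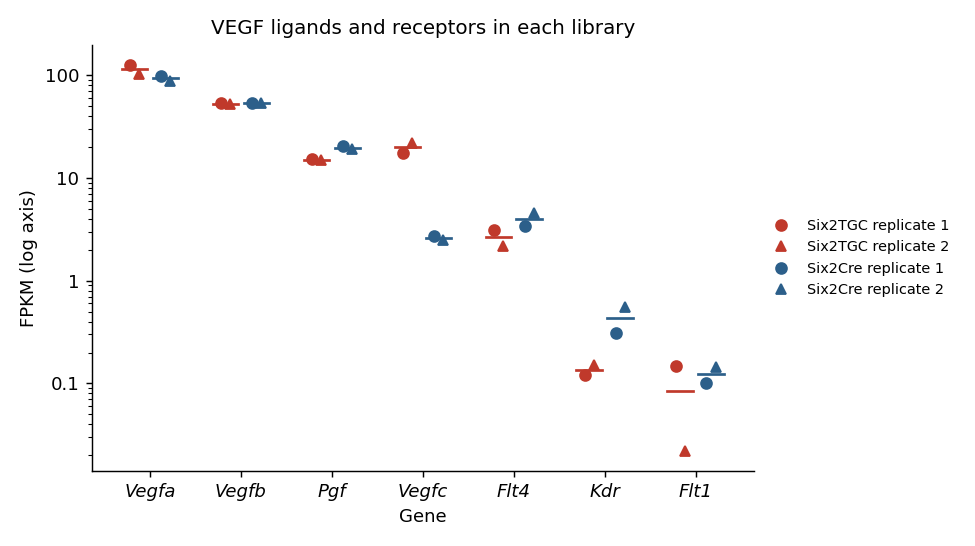
FPKM on a log axis of the 7 VEGF ligand and receptor genes in each library, with circles for replicate 1, triangles for replicate 2 and lines for the mean of each line. Vegfc stands at 17.6 and 22.0 in Six2TGC against 2.74 and 2.47 in Six2Cre, while Vegfb stays between 52.5 and 53.9.

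Vegfc, whose product drives the growth of lymphatic vessels, had the widest gap of these 4 ligand genes. Its FPKM was 17.6 and 22.0 in Six2TGC, against 2.74 and 2.47 in Six2Cre. The lines did not overlap, and the lower Six2TGC library was far above the higher Six2Cre library. Mean FPKM was 19.8 ± 3.10 in Six2TGC and 2.60 ± 0.189 in Six2Cre (SD, n = 2 per line), a 7.59-fold difference. On the log2(FPKM + 1) scale, which understates the change of low genes, the difference was 2.52, and 24 of the 11917 tested genes had a larger rise. It ranged from 2.37 to 2.67 when each library in turn was left out. The measurement is of bulk RNA, so more cells with the transcript and more transcript per cell cannot be told apart, here or for any gene below. The gene lies on chromosome 8 at 54077532 to 54186454 (mm10) on the plus strand, and GENCODE M21 lists no other gene over it.

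Vegfd, the closest relative of Vegfc and a ligand of the same receptor, is listed under its older symbol Figf. It had FPKM values of 1.02 and 1.51 in Six2TGC, against 0.157 and 0.166 in Six2Cre, so the lines did not overlap. Its ratio of means, 7.84, lay close to that of Vegfc at a much lower level. Its mean over the libraries missed the minimum for the test, and with no filter on low values it was called higher (log2 difference 0.96, limma adjusted p = 0.0160). In that setting limma called 1080 of the 17341 genes above 0 in any library higher. Figf was not significant in the authors' deposited table (q = 0.0737). Figf is X-linked, and its value in Six2TGC replicate 1, the library with Ddx3y, was the lower of the Six2TGC values.

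The sequences upstream of these ligand genes and of both neuropilin genes are shown because these 4 genes had the largest ratios of means among VEGF ligands and neuropilins. Each is the 250 bases before the annotated start (RefSeq, GRCm38.p6), written 5′ to 3′ along the gene. Capitals mark ACGTG or GCGTG, the core of the hypoxia response element, and TATAAA, the TATA box, each searched on both strands. A match on the opposite strand appears as its reverse complement, as in the Nrp1 window, and none of the matches overlap.

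Vegfc, chr8:54077282-54077531, plus strand: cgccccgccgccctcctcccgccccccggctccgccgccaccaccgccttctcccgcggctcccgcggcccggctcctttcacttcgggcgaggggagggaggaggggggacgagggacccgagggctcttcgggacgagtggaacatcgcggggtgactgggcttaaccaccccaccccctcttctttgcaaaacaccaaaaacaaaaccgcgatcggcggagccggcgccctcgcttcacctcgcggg

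Vegfd, chrX:164373272-164373521, plus strand: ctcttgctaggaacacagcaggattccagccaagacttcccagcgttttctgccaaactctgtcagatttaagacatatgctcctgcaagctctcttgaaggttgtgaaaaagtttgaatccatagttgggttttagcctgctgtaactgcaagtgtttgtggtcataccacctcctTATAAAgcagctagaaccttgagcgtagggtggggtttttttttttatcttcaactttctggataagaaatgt

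Nrp1, chr8:128358823-128359072, plus strand: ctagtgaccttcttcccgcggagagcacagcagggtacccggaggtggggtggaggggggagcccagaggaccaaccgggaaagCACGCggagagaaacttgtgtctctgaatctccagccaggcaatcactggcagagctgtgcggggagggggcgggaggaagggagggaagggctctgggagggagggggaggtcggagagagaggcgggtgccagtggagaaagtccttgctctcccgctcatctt

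Nrp2, chr1:62703067-62703316, plus strand: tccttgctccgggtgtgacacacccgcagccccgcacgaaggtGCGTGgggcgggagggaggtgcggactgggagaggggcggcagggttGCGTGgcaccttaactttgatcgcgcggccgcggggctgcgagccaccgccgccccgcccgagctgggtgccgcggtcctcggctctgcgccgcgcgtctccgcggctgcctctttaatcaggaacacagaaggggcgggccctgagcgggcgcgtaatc

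The Vegfc and Vegfd windows differ in composition, with GC contents of 71.6% and 42.4% against a median of 52.4% over all 32851 windows. The Vegfc window holds none of the motifs. The Vegfd window holds TATAAA, a motif found in 12.4% of windows, with its start 73 bases before the RefSeq start of the gene. GENCODE M21 starts Vegfd earlier, at 164373378, which lies within this window and before the motif. GCGTG occurs 1 time in the Nrp1 window and at 2 places in the Nrp2 window, and 28.2% of all windows hold it. Among the 9 windows of the 7 ligand and receptor genes, 5 held ACGTG or GCGTG, against 38.6% of all windows. The main Vegfa window held neither, and the window at its internal start held both. A match is a description of letters and not a site.

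Vegfa had FPKM values of 126 and 103 in Six2TGC, against 97.6 and 87.7 in Six2Cre. The lines did not overlap, but the lower Six2TGC library was close to the higher Six2Cre library. Mean FPKM was 115 ± 16.3 against 92.7 ± 6.99 (SD, n = 2 per line), a 1.24-fold difference and a log2 difference of 0.30. Leaving out Six2TGC replicate 1 gave 0.15, and leaving out replicate 2 of that line gave 0.44. The locus is on chromosome 17 at 46016993 to 46032377 (mm10), minus strand, and GENCODE M21 lists 13 transcripts, whose isoforms a value per gene does not separate. The genes with the most similar profile over the 4 libraries were Leng8, Ppfia4 and Zfp661, at Euclidean distances of 0.0130, 0.0197 and 0.0246 between centred log2 values.

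Vegfb, a ligand of FLT1, was the most even of the ligand genes. It had FPKM values of 53.1 and 52.5 in Six2TGC, against 53.5 and 53.9 in Six2Cre. Although the libraries did not overlap, the ratio of means was 0.984 and the log2 difference was -0.02. That difference took the opposite sign, at 0.0041, under quantile normalization. The gene lies on chromosome 19 at 6982472 to 6987651, minus strand.

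Pgf, which encodes placental growth factor, went the other way from Vegfc. It had FPKM values of 15.2 and 14.9 in Six2TGC, against 20.4 and 18.98 in Six2Cre, with no overlap. Mean FPKM was 15.0 ± 0.195 against 19.7 ± 1.04 (SD, n = 2 per line), 1.31-fold higher in Six2Cre, and the log2 difference was -0.37. That difference was -0.32 without Six2Cre replicate 1 and -0.42 without Six2Cre replicate 2. The gene lies on chromosome 12 at 85166639 to 85177313, minus strand.

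The makeup of the ligand transcripts differed accordingly. Vegfc made up 8.29% and 11.4% of the summed FPKM of the 4 ligand genes in Six2TGC, and 1.57% and 1.52% in Six2Cre. Vegfa made up 53.5% to 59.5% in the 4 libraries, with the lines overlapping. For every FPKM of Vegfc there were 7.17 and 4.69 of Vegfa in Six2TGC, against 35.6 and 35.5 in Six2Cre. The Vegfa share thus did not separate the lines, while the balance of Vegfa to Vegfc did.

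Flt4, the receptor for VEGF-C and VEGF-D, was the receptor transcript with the highest level. It had FPKM values of 3.14 and 2.19 in Six2TGC, against 3.39 and 4.52 in Six2Cre. The lines did not overlap, though the higher Six2TGC library lay just below the lower Six2Cre library. Mean FPKM was 2.67 ± 0.671 against 3.95 ± 0.797 (SD, n = 2 per line), 1.48-fold higher in Six2Cre, with a log2 difference of -0.44. That difference was -0.25 without Six2TGC replicate 2 and -0.62 without Six2TGC replicate 1. The gene lies on chromosome 11 at 49609679 to 49652739, plus strand.

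Kdr, the main signalling receptor for VEGF-A, had FPKM values of 0.121 and 0.152 in Six2TGC, against 0.313 and 0.553 in Six2Cre. The lines did not overlap. Mean FPKM was 0.136 ± 0.0216 against 0.433 ± 0.170 (SD, n = 2 per line), 3.17-fold higher in Six2Cre. The gene was below the minimum for the test, and its log2 difference of -0.33 is compressed by the pseudocount, becoming -1.14 with a pseudocount of 0.1. The locus is on chromosome 5 at 75933270 to 75978428, minus strand. The tested genes with the most similar profile were Lrrc40, Wdr76 and Eef2kmt, at distances of 0.0210, 0.0238 and 0.029998, and all stand at far higher levels. This likeness holds only on the log2(FPKM + 1) scale, which compresses Kdr. Lrrc40 stood at FPKM 12.8 and 13.2 in Six2TGC, against 15.0 and 17.8 in Six2Cre, a much smaller ratio than that of Kdr.

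Flt1, which encodes a receptor and, by alternative transcripts, a soluble decoy, had the lowest level. It had FPKM values of 0.147 and 0.0219 in Six2TGC, against 0.101 and 0.145 in Six2Cre, and the lines overlapped. With the relative depths above, these values are whole multiples of one step, within 0.15, for 7, 1, 9 and 13 fragments. Larger whole numbers of the same ratio cannot be told apart from these. The same search gave no such fit for Kdr. For Flt1 the difference between the lines was -0.05 on the log2 scale and turned to 0.03 without Six2TGC replicate 2, so no difference was detectable at this depth. The gene lies on chromosome 5 at 147562196 to 147725988, minus strand.

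Endothelial marker genes were read beside the receptors, since KDR and FLT1 are usually endothelial and the sort was for progenitors. Of 16 markers, 10 had both Six2Cre libraries above both Six2TGC libraries, 1 had the reverse and 5 overlapped. Over all genes above 0 in any library, 32.1% were lower and 26.5% higher in both Six2TGC libraries. The adhesion gene Pecam1 had FPKM values of 0.222 and 0.0463 in Six2TGC, against 0.644 and 0.965 in Six2Cre. The endothelial cadherin gene Cdh5 stood at 0.267 and 0.105 against 0.918 and 1.12. Tie1, an endothelial receptor kinase gene, stood at 0.137 and 0.0359 against 0.740 and 1.31. These 3 markers and Kdr were all low and all higher in Six2Cre, and in Six2TGC replicate 2, which had the lowest Flt1 value, Esam and Sox17 were listed at 0.

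The summed FPKM of the 16 markers was 38.5 and 24.0 in Six2TGC and 31.6 and 29.1 in Six2Cre, and most of it came from Egfl7, Plvap and Cldn5. Egfl7 had FPKM values of 13.0 and 10.7 in Six2TGC, against 17.1 and 14.3 in Six2Cre, and Plvap had 15.6 and 9.52 against 5.97 and 4.88. Without these 3 genes, a choice made after their values were seen, the sum was 4.39 and 1.81 in Six2TGC, against 6.52 and 8.24 in Six2Cre. The part of endothelial RNA in the Kdr and Flt4 values was not tested. Of the 4 lymphatic markers, Ccl21a was listed at 0 in all libraries, Lyve1 stood at or below 0.0830, and Prox1 and Pdpn overlapped between the lines, at 0.952 to 1.58 and 15.8 to 25.7. The summed lymphatic markers, 26.9 and 17.5 against 22.1 and 24.7, overlapped as well.

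**Figure D2:**
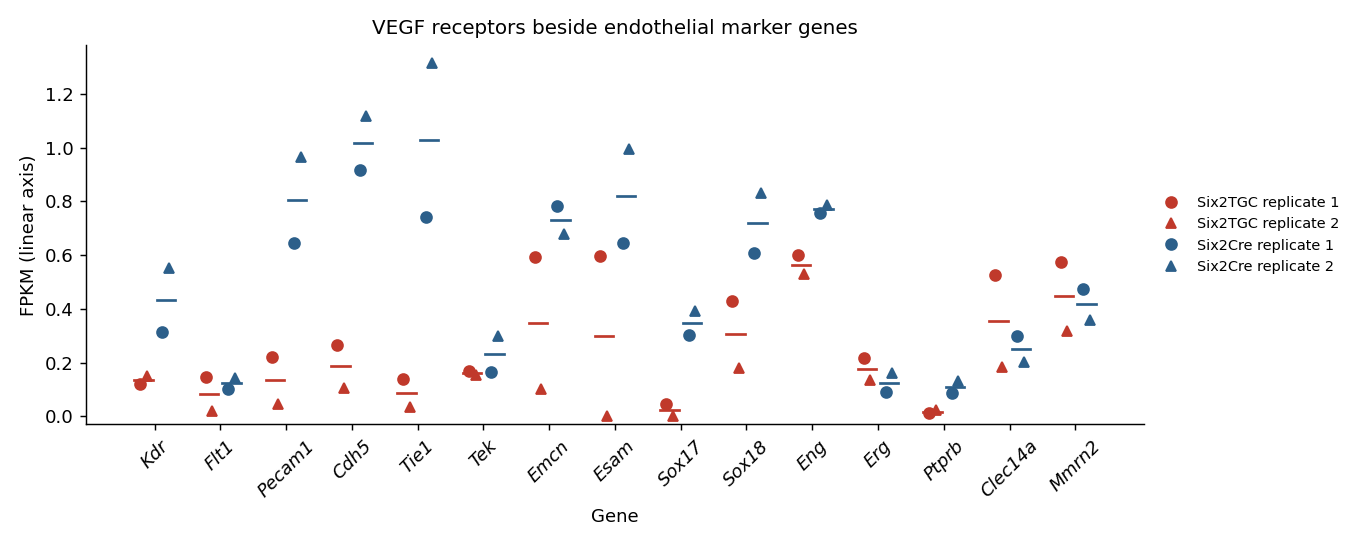
FPKM on a linear axis of Kdr, Flt1 and the 13 endothelial marker genes other than Egfl7, Plvap and Cldn5 in each library, with lines for the mean of each line. Kdr, Pecam1, Cdh5 and Tie1 lie higher in both Six2Cre libraries, Tek, Erg, Clec14a and Mmrn2 overlap, and the highest value is 1.31.

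Other cell types that could hold VEGF transcripts were read in the same way. Of 8 podocyte markers, 4 were higher and 4 lower in both Six2TGC libraries, against the 26.5% and 32.1% of all genes above. The slit diaphragm gene Nphs1 stood at 0.0742 or below in every library and was listed at 0 in Six2TGC replicate 2. Stromal and mural markers summed to 159 and 133 in Six2TGC and to 98.3 and 75.0 in Six2Cre, and 6 of 10 were higher in both Six2TGC libraries (26.5% of all genes were), 1, Rgs5, was lower, and 3 overlapped. Foxd1, the stromal progenitor gene, stood at 56.9 and 55.2 against 37.3 and 33.2, and Col1a1, which overlapped, at 42.8 and 31.7 against 33.4 and 20.7. The part of stromal RNA in the Vegfc level was not tested. Ureteric bud markers summed to 7.25 and 5.90 against 8.64 and 9.01, with 6 of 8 lower and 1, Wnt11, higher in both Six2TGC libraries. Without Wnt11 the sums were 2.42 and 2.03 against 7.40 and 8.12. Blood and immune markers summed to 16.02 and 14.99 against 24.3 and 23.8, with 4 of 9 higher and 1, the macrophage gene Cd68, lower in both Six2TGC libraries. Of those 4, Hba-a2 and Hbb-bs stood at 0.0264 or below in every library, with log2 differences of only 0.0030 and 0.0019. Without Cd68 the sums lay the other way, at 8.70 and 6.98 against 5.10 and 5.68. Nephron progenitor markers summed to 1906 and 1994 in Six2TGC and to 2631 and 2542 in Six2Cre, with 3 of 10 higher and 6 lower in both Six2TGC libraries. Without Cited1 these sums also lay the other way, at 1797 and 1899 against 1725 and 1664. The largest value in them was that of Six2, the gene that directs GFP-Cre, at 749 and 816 against 545 and 533. The 3 higher markers were Six2, Sall1 and Crym, and the 6 lower were Cited1, Eya1, Wt1, Pax2, Gdnf and Meox1. Wnt11, Cd68 and Cited1 were left out after their values were seen. Cited1, which marks progenitors that have not begun to differentiate, stood at 109 and 94.6 against 907 and 878.

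Both neuropilin genes changed, in opposite directions. Nrp2, the co-receptor that pairs with FLT4, had FPKM values of 1.86 and 1.40 in Six2TGC, against 11.3 and 10.4 in Six2Cre. It fell by 2.18 ± 0.141 on the log2 scale (SE; limma adjusted p = 8.67e-05), and its mean was 6.66-fold higher in Six2Cre. Nrp1, the co-receptor best known with KDR, stood at 26.9 and 27.6 against 15.1 and 16.6, a rise of 0.75 ± 0.0873 (limma adjusted p = 1.26e-03). The ratio of Nrp1 to Nrp2 was 14.5 and 19.7 in Six2TGC, against 1.34 and 1.60 in Six2Cre. Nrp2 was thus high where Vegfc was low. Both calls remained when each library in turn was left out.

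Genes that process or bind VEGF outside the cell included calls in both directions. Of the 12 co-receptors and extracellular modulators, 8 were tested, and 4 were higher, 3 lower and 1 had no call, where 10.8% of all genes tested were higher and 13.5% lower, with a median log2 difference of 0.42 against -0.03 over all genes tested. Hspg2, which encodes the heparan sulphate proteoglycan perlecan, stood at FPKM 60.8 and 58.3 against 29.3 and 30.7 and rose by 0.97 (limma adjusted p = 1.98e-04). Adamts1, a secreted protease gene whose product can bind VEGF-A, rose by 1.01 (limma adjusted p = 6.95e-04), and the glypican gene Gpc1 rose by 0.48 (limma adjusted p = 4.11e-03). Thbs1, encoding the angiogenesis inhibitor thrombospondin, fell by 0.71 (limma adjusted p = 0.0127), and the integrin gene Itgav fell by 0.45 (limma adjusted p = 0.0219). The Gpc1 call was lost without Six2Cre replicate 1, the Thbs1 call without either Six2Cre library, and the Itgav call without any library except Six2TGC replicate 1.

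Ccbe1 and Adamts3, whose products together cut VEGF-C into its active form, were low. Ccbe1 had FPKM values of 0.460 and 0.312 in Six2TGC, against 0.0124 and 0.0487 in Six2Cre, and Adamts3 had 0.243 and 0.253 against 0.102 and 0.101. Neither gene overlapped between the lines, and both lay in the direction of Vegfc. Both were below the minimum for the test. With no filter on low values, Ccbe1 was called higher (log2 difference 0.43, limma adjusted p = 0.0307) and Adamts3 had no call (0.18, limma adjusted p = 0.124). In that setting 1080 of the 17341 genes above 0 in any library were called higher.

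**Figure D3:**
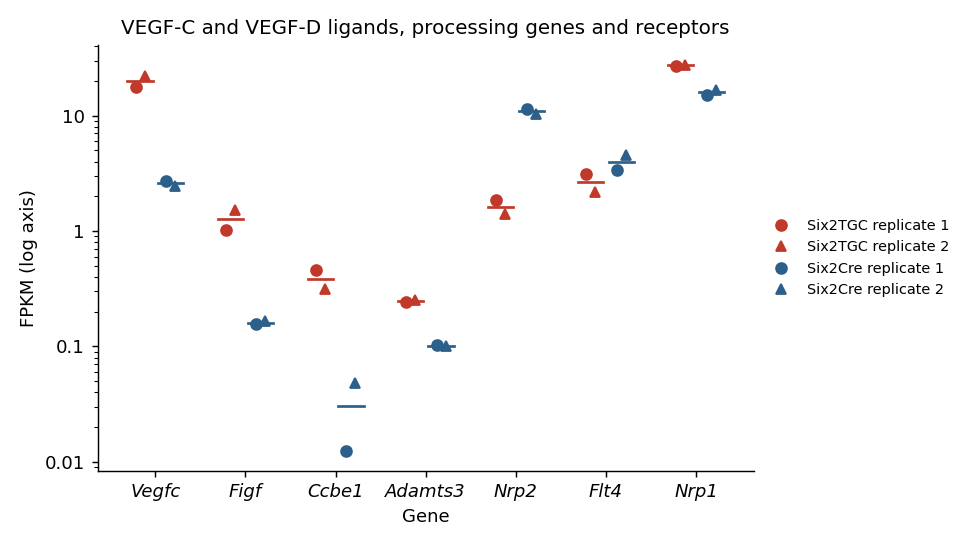
FPKM on a log axis of Vegfc, its relative Figf, the processing genes Ccbe1 and Adamts3, and the receptor genes Nrp2, Flt4 and Nrp1, with lines for the mean of each line. The ligand and processing genes and Nrp1 stand higher in Six2TGC, and Nrp2 and Flt4 stand higher in Six2Cre.

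The genes nearest to Vegfc in profile, a search added after its values were seen, were Pcdh7, Lrrc3b and Sp5, at distances of 0.0827, 0.172 and 0.174. Pcdh7, a protocadherin gene, had FPKM values of 9.61 and 11.4 in Six2TGC, against 0.974 and 0.898 in Six2Cre.

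Of the 36 genes for signalling downstream of VEGF receptors, 32 were tested, and 7 were higher, 1 lower and 24 had no call. Over all genes tested, 10.8% were higher and 13.5% lower. The median log2 difference of the list was 0.01 against -0.03 over all genes tested. The share called in either direction was close to the 24.3% background. By sign alone, 16 of the 32 tested genes were higher in Six2TGC. Of all 36, 14 were higher and 13 lower in both Six2TGC libraries, against 26.5% and 32.1% of all genes above 0 in any library. The calls were more evenly split between the directions without Six2TGC replicate 2. Pik3r1, which encodes a regulatory subunit of phosphoinositide kinase, stood at FPKM 14.5 and 15.5 against 4.02 and 3.81 and rose by 1.71 (limma adjusted p = 8.18e-05). The calcineurin gene Ppp3ca rose by 0.85 (limma adjusted p = 3.90e-04) and the adaptor gene Shb by 0.55 (limma adjusted p = 3.79e-03). Map2k1, a kinase gene of the MAPK cascade, rose by 0.42 (limma adjusted p = 0.0229). Mapk14, the gene for a p38 kinase, was the lower member and fell by 0.41 (limma adjusted p = 8.46e-03). Mapk14 lost its call without either Six2Cre library, and Map2k1 without any library except Six2TGC replicate 2. Plcg1, whose phospholipase product binds activated KDR, stood at 46.2 and 49.0 against 38.1 and 38.3 and rose by 0.31 (limma adjusted p = 0.0234), a call kept only without Six2TGC replicate 1. This list acts downstream of many receptors besides those for VEGF.

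Vegfa is a known target of the hypoxia-inducible factors (HIF), so genes of oxygen sensing and other HIF targets were read beside it. Of 12 oxygen-sensing genes, 10 were tested and 1 was called, where 24.3% of all genes tested were. This was the coactivator gene Crebbp, at FPKM 20.75 and 20.77 against 16.98 and 16.81. It rose by 0.28 (limma adjusted p = 0.0428), a call lost without any 1 of the 4 libraries. Hif3a stood at 5.14 and 3.61 against 2.67 and 2.57 and just missed a call (limma adjusted p = 0.0503). The authors' deposited table marked Hif3a as significant (q = 5.95e-03) and did not mark Crebbp (q = 0.228), where 13.5% of the genes tested there were marked. Hif1a itself had FPKM values of 23.9 and 27.8 in Six2TGC, against 27.2 and 28.6 in Six2Cre, with overlap and no call. The HIF1A protein is known to be regulated mainly by breakdown, which transcript values do not show. The median log2 difference of the list was 0.17.

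Of 22 HIF targets, 21 were tested, and 6 were higher, 2 lower and 13 had no call, against 10.8% higher and 13.5% lower over all genes tested, with a median of 0.18 against -0.03 over all genes tested. Ddit4, an inhibitor of growth signalling, stood at FPKM 81.6 and 72.1 against 34.0 and 40.2 and rose by 1.03 (limma adjusted p = 6.36e-04). The collagen hydroxylase genes P4ha1 and P4ha2 rose by 0.83 and 0.76 (limma adjusted p = 1.58e-03 and 0.0201), and the glucose transporter gene Slc2a1 rose by 0.76 (limma adjusted p = 5.80e-03). Ndrg1 fell by 0.73 (limma adjusted p = 0.0401) and Higd1a by 0.32 (limma adjusted p = 0.0439). The glycolytic genes Pgk1 and Ldha had no call, at 281 and 255 against 234 and 227 and at 716 and 671 against 618 and 589. The P4ha2 and Ndrg1 calls were lost without either Six2Cre library, the Slc2a1 call without Six2Cre replicate 2, and the Higd1a call without any 1 of the 4 libraries.

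The spread between the Six2TGC libraries in Vegfa was shared by this list, a reading added after the values were seen. Six2TGC replicate 1 lay above replicate 2 in 18 of the 21 tested HIF targets, as it did for Vegfa, against 48.7% of all genes tested. Slc2a1, for example, stood at FPKM 86.2 and 66.9 in these libraries and Pdk1 at 40.7 and 28.1. Within Six2Cre, replicate 1 lay above replicate 2 in 10 of the 21. Each count compares genes within a single pair of libraries, and genes are not replicates. The Six2TGC libraries also differ in the sex of their source, and the cause of their spread was not tested.

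**Figure D4:**
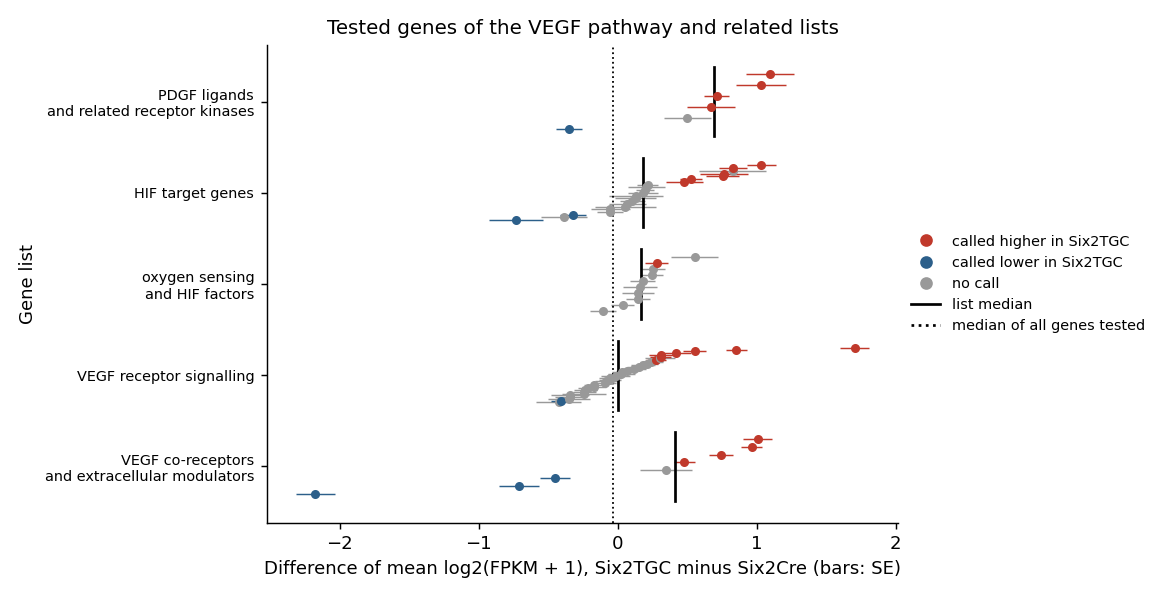
Difference of mean log2(FPKM + 1) between the lines with its SE for the tested genes of 5 lists, coloured by limma call, with the median of each list as a solid line and the median of all genes tested as a dotted line. Nrp2 is the lowest point at -2.18 and Pik3r1 the highest at 1.71.

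The related growth factors of the PDGF family and their receptor kinases were read last, since KDR, FLT1 and FLT4 belong to the same wider kinase group. Of 9 genes, 6 were tested, and 4 were higher, 1 lower and 1 had no call, beside 10.8% higher and 13.5% lower over all genes tested. Their median log2 difference was 0.69. Pdgfra, a receptor gene of stromal cells, stood at FPKM 2.55 and 2.33 against 0.463 and 0.766 and rose by 1.10 (limma adjusted p = 4.81e-03). Its relative Pdgfrb rose by 1.03 (limma adjusted p = 6.36e-03), and both calls were lost without Six2Cre replicate 1. Both genes are also in the stromal marker list. The ligand gene Pdgfa stood at 73.1 and 65.7 against 44.0 and 39.9 and rose by 0.71 (limma adjusted p = 1.57e-03), Pdgfd rose by 0.67 (limma adjusted p = 0.0294) and Pdgfc fell by 0.35 (limma adjusted p = 0.0355). The Pdgfd call remained only without Six2TGC replicate 1, and the Pdgfc call only without Six2Cre replicate 1. None of the 5 angiopoietin and TIE receptor genes reached the minimum for the test, and Angpt1, which acts on endothelial TEK, stood at 0.801 and 0.803 against 0.216 and 0.180. With no filter on low values, limma called Angpt1 higher (log2 difference 0.59, adjusted p = 0.0180) and Tie1 lower (-0.89, adjusted p = 0.0264). In that setting 1080 of the 17341 genes above 0 in any library were called higher and 1299 lower.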

How the data were processed

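FPKM values of 24339 genes in 4 libraries were deposited by the authors in a gene table. Reads were aligned with HISAT2 and compared with Cuffdiff on mm10, per the submitters' processing notes. Versions, annotation and strand use were not given in the sources used here. A q-value per gene from the authors' own comparison was also deposited, per the file headers. No counts are given, so relative depth was estimated from the most frequent ratio of values up to 0.4 between libraries (334 of 1309, 260 of 1497 and 262 of 1511 genes in the peak).

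Genes averaging FPKM 1 or more entered limma (version 3.58.1, R 4.3.3), on log2(FPKM + 1), with trend and robust moderation, two-sided, Benjamini-Hochberg adjusted, without covariates. The script was tested on simulated data. Line and any batch cannot be told apart. Folds are ratios of mean FPKM. Table coordinates were raised by 1 at the start. Upstream windows came from RefSeq (GRCm38.p6) and transcripts from GENCODE M21.

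The members and the 6 pathway and 7 marker lists were chosen with earlier results of these data known. Named genes were the members, called list genes (up to 4 per direction for signalling and HIF targets), up to 4 leading markers per list and the 3 nearest profiles of Vegfa and Kdr. Others, among them Pecam1, Cdh5, Tie1, Esam, Sox17, Nphs1, Rgs5, Wnt11, Figf, Ccbe1, Adamts3, Hif1a, Plcg1, Pgk1, Ldha, Pdk1, Angpt1, Pcdh7, Lrrc3b, Sp5 and Ddx3y, were chosen after their values were seen. Single values of some podocyte markers are not reported here.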

Additional observations from a re-analysis of the deposited data

How the results depend on the processing

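The count of genes called, 2900, became 1637 in the authors' deposited table and ranged from 1010 to 2803 when each library in turn was left out. The lowest counts were 1010 without Six2Cre replicate 1 and 1143 without Six2Cre replicate 2. With a pseudocount of 0.1 the log2 differences were 2.87 for Vegfc, -0.36 for Flt1 and -1.14 for Kdr, and with 0.5 they were 2.70 for Vegfc and -0.54 for Kdr. Quantile normalization gave 0.0041 for Vegfb. Leaving out each library gave -0.14 to 0.03 for Flt1, -0.45 to -0.21 for Kdr, -0.62 to -0.25 for Flt4, -0.42 to -0.32 for Pgf, 0.15 to 0.44 for Vegfa, -0.03 to -0.02 for Vegfb and 2.37 to 2.67 for Vegfc.

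Calls of list members ranged from 4 to 7 for co-receptors and modulators, 3 to 9 for receptor signalling, 0 to 2 for oxygen sensing, 3 to 9 for HIF targets and 2 to 4 for the PDGF list when each library was left out. With no filter on low values, 5 signalling genes, 0 oxygen-sensing genes, 4 HIF targets and 2 angiopoietin and TIE genes were called in limma. In that setting 2379 of the 17341 genes above 0 in any library were called. A minimum mean FPKM of 5 left 2 called PDGF genes. Oxygen sensing had 2 calls with either smaller pseudocount, under trimmed-mean scaling and under quantile normalization. The authors' deposited table marked 3 signalling genes and 1 angiopoietin or TIE gene. The cause of these shifts was not tested, apart from the fewer genes tested at the higher minimum.

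Among the settings that kept every library, 9 of the 29 called list genes lost the call with no filter, 2 under quantile normalization and 2 under the replicate block. More of them lost it without either Six2Cre library than in any of these settings. All kept their direction.

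Replicates of the lines share only a number. Their deviations correlated at -0.0399 across genes. With the replicate block, limma called 2713 of the 11917 genes tested and 0 oxygen-sensing genes, and Vegfa joined Vegfc and Pgf. With 2 libraries per line, a lone library was taken to vary like the other line when its partner was left out.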
